A study of Mus musculus with 5 samples.

Results

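Interferon-stimulated effector genes are the genes whose products carry out the antiviral work of interferon. A set of 38 was examined in mouse common lymphoid progenitors, with members given by symbol for their known response to interferon and grouped by role. All 38 were found among the 55487 genes of the count table, and all 38 were among the 14423 genes with enough reads to be tested. The members comprised 5 sensors of foreign RNA and other nucleic acids, 2 genes of the p200 family, 5 OAS genes, 3 IFIT genes, 2 Mx GTPases, 9 GTPases known for induction by interferon-gamma, 2 genes of the ISG15 pathway and 10 other effectors.

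Common lymphoid progenitors (CLPs) are marrow cells from which B cells, T cells and natural killer cells can arise, and here they were sorted as lineage-negative, CD127-positive, Flt3-positive cells of bone marrow. Bulk RNA sequencing gave 3 libraries from SF1 mice and 2 libraries from wild-type (WT) mice. SF1 mice carried SclCre, a Cre recombinase under control of the blood stem and progenitor cell gene Scl, and JAK2-V617F, the constantly active kinase mutant of human myeloproliferative neoplasms. Marrow of both groups was taken 16 weeks after tamoxifen; the labels do not say whether WT mice carried SclCre, how old the mice were, whether animals were pooled or which share of the sorted cells carried the mutant. P-values therefore measure the spread between these libraries, which may be technical.

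Interferons are secreted alarm proteins. Type I interferons signal through IFNAR1 and IFNAR2 with the kinases JAK1 and TYK2, whereas interferon-gamma signals through its own receptor with JAK1 and JAK2, and both pathways activate transcription factors of the STAT family. The type I pathway acts mainly on the interferon-stimulated response element in promoters, and the interferon-gamma pathway mainly on the gamma-activated site. Many interferon-stimulated genes are also read at a lower, tonic level in the absence of infection, in blood progenitors among other cells.

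Total counts were 9350767 to 11290082 in the SF1 libraries, against 20424296 and 8894288 in the WT libraries, so that 1 count stood for 0.0503 to 0.114 CPM (counts scaled by TMM to a common library total). Genes were called where the adjusted p of edgeR's quasi-likelihood test was under 0.05. The lymphoid and sort genes Il7r, Flt3, Dntt, Rag1, Rag2, Ly6d, Lck and Notch1 had summed levels of 8931 to 9362 CPM in SF1 libraries, against 8636 and 8352 CPM in WT libraries, with Dntt the largest part (4885 to 5375 CPM in SF1 libraries, 5144 and 4985 CPM in WT libraries). Within that list Ly6d (log2 fold change 0.92, adjusted p = 0.000232) and Il7r, which encodes CD127 (0.32, adjusted p = 0.0318), rose, Rag1 fell (-0.999, adjusted p = 0.0199) and 5 of 8 did not pass. Il7r was not past the threshold without any 1 of the SF1 libraries or WT replicate 1 (0.0665 to 0.211), nor was Rag1 with DESeq2 (0.0533) or when SF1 replicate 2, SF1 replicate 3 or WT replicate 1 was left out (0.0707 to 0.140). Read counts per gene do not separate the V617F allele from normal Jak2. Jak2 itself had 68.1, 67.8 and 63.3 CPM in SF1 libraries, against 58.4 and 35.4 CPM in WT libraries (log2 fold change 0.48 ± 0.18 SE, adjusted p = 0.104). It was past the threshold without WT replicate 1 (adjusted p = 0.00685) and without a filter on low counts (0.0037).

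Most members leaned low in SF1 CLPs by a small amount, and few passed the test. Of the 38 members, 5 fell (Ddx58, Iigp1, Samd9l, Parp14 and Lgals3bp) and 1 rose (Gbp3), while 32 did not pass. These 6 are 15.8% of the members, and 16.5% of all genes tested were called, so the share was near the background. Calls of lower expression took in 13.2% of members against 9.74% of all genes, and calls of higher expression took in 1 member against 6.77% of all genes. The log2 fold change (SF1 over WT) was below 0 in 34 members, or 89.5%, where 47.9% of all genes tested were below 0. Its median over the members was -0.36, against 0.02 over all genes tested, with a range of -1.07 (Ifit3) to 0.38 (Gbp4).

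The libraries overlapped in 21 of the 38 members. In 16 members every SF1 library lay below both WT libraries, an arrangement seen in 24.2% of all genes tested. In 1 member, Gbp3, every SF1 library lay above both, as in 24.8% of all genes. At an unadjusted p under 0.05 there were 14 members lower and 1 higher, where 16.5% of all genes were lower and 14.9% higher. A further 5 members had an adjusted p between 0.05 and 0.1, all with fold changes below 0: Oas3 (0.0525), Usp18 (0.0612), Eif2ak2 (0.0668), Rtp4 (0.0693) and Ifit1 (0.0930). In sorted bulk samples, fewer cells of a kind that reads a gene and less RNA of that gene per cell cannot be told apart.

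**Figure D1:**
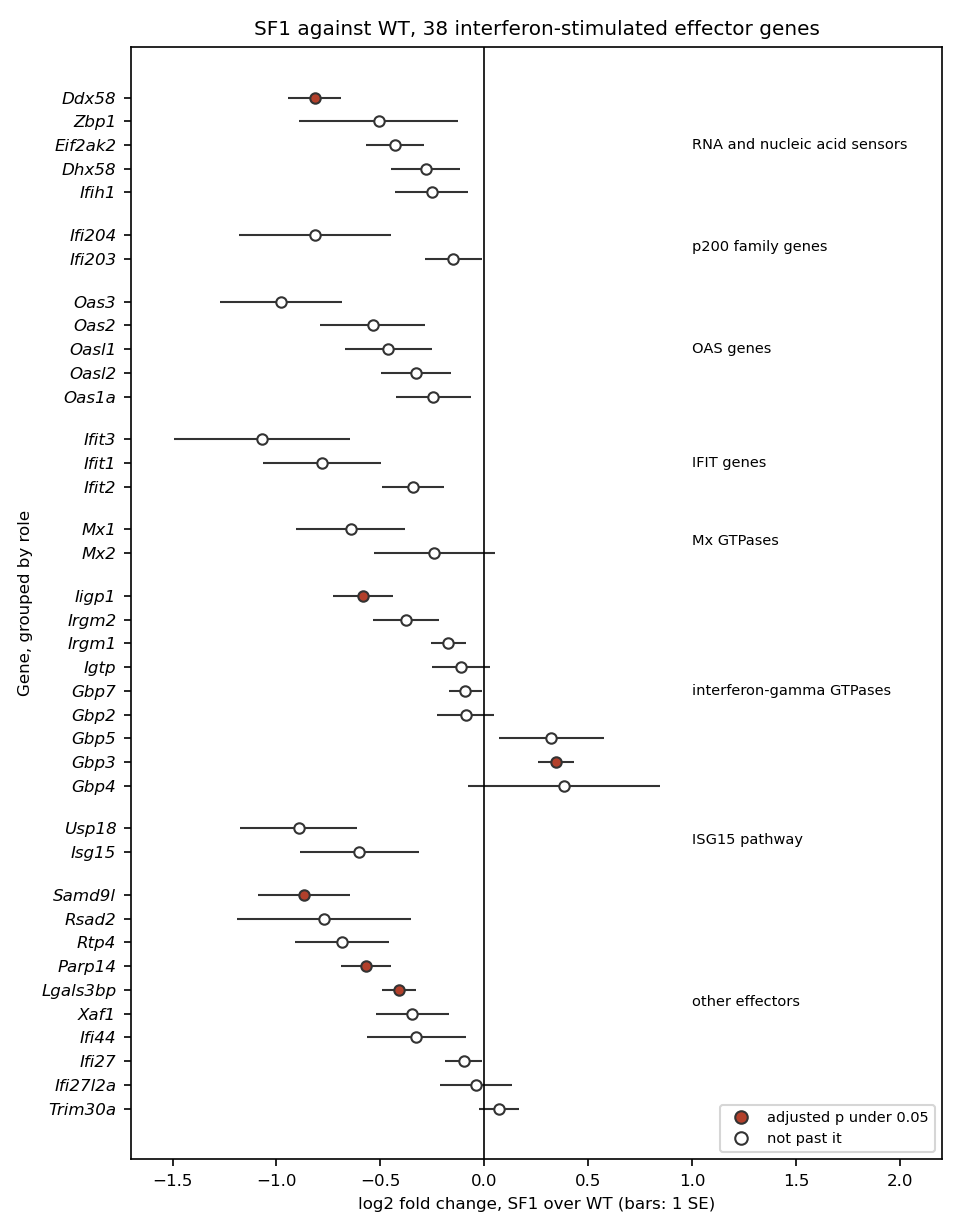
Log2 fold change of SF1 over WT for each of the 38 members, on the horizontal axis, with genes grouped by role on the vertical axis; points are edgeR estimates, bars are 1 SE, and filled points had an adjusted p under 0.05. Of the points, 34 lie left of 0, and 6 are filled.

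Promoter sequence from RefSeq (GRCm38.p6, 250 bases before to 50 after each start site) was matched for 25 of the 38 members. The core of the interferon-stimulated response element, GAAA followed after 2 unspecified bases by GAAA, on either strand, stood in 18 of the 25 (72%), against 3.99% of all 27025 genes of that table. The gamma-activated site, TTCNNNGAA, which reads the same on both strands, stood in 7 of the 25 (28%), against 9.55% of all genes. All 7 of the interferon-gamma GTPases with a promoter held the response element core and 4 of them the gamma-activated site. Among the other 18 members, 11 held the response element core, 3 the gamma-activated site and 6 neither. The members are known interferon targets, so these shares describe the set and are no test. The 2 motifs do not contain each other.

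The promoters of 4 of the 6 called members are given first, as the 150 bases before the start on the gene's own strand, written 5′ to 3′ with response element matches in capitals: Gbp3 at chr3:142559894-142560043 on the plus strand, and Ddx58 at chr4:40239826-40239975, Samd9l at chr6:3399572-3399721 and Lgals3bp at chr11:118401960-118402109 on the minus strand. Of these 4, only Gbp3, the one that was higher, has matches in this stretch, and they overlap. RefSeq gives Gbp3 2 start sites, of which the first is shown, and the window of the second holds no match. The match in Ddx58 begins 3 bases after the start, outside the printed stretch, and Samd9l and Lgals3bp have none in the whole window.
Gbp3: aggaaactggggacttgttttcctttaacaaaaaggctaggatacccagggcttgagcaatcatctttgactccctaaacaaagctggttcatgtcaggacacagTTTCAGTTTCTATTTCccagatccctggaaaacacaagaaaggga
Ddx58: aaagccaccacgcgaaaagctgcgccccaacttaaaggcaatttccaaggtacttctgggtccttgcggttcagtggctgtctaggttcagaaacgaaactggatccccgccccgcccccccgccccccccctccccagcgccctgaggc
Samd9l: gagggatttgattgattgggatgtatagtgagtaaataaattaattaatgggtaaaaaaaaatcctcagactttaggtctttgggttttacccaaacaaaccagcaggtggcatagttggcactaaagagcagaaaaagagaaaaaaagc
Lgals3bp: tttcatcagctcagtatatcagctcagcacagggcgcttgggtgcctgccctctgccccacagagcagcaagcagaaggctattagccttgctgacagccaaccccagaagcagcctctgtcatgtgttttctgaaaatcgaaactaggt

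For comparison, 4 members that did not pass the test are shown in the same way, chosen after their values were seen, because each holds the response element core close to its start and the 4 come from different roles: Isg15 (chr4:156200819-156200968, minus strand), Ifit1 (chr19:34640739-34640888, plus strand), Oas3 (chr5:120777660-120777809, minus strand) and Irgm1 (chr11:48871421-48871570, minus strand). Isg15 has 3 overlapping matches, Ifit1 has 2 separate ones, Irgm1 has 2 overlapping ones and Oas3 has 1. Their log2 fold changes were -0.60, -0.78, -0.17 and -0.98. Over all 18 members with the core, fold changes ran from -1.07 (Ifit3) to 0.34 (Gbp3).
Isg15: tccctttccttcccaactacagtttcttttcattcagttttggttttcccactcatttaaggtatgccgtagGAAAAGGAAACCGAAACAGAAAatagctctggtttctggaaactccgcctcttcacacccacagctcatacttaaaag
Ifit1: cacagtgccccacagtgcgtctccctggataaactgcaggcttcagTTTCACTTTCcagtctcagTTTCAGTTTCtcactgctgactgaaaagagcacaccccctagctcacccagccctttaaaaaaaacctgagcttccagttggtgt
Oas3: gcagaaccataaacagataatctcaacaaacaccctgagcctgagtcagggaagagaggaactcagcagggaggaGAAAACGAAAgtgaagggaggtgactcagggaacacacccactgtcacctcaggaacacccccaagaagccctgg
Irgm1: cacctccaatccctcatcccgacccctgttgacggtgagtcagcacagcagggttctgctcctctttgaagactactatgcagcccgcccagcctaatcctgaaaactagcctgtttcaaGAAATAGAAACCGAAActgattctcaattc

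Sensors recognise viral nucleic acid, and several of them start interferon production. Ddx58 (RIG-I, a helicase that senses short double-stranded RNA; GRCm38 chr4:40203773-40239828, minus strand) had 48.2, 40.9 and 39.7 CPM in SF1 libraries, against 82.6 and 67.9 CPM in WT libraries. All SF1 libraries lay well below both WT libraries. It fell 1.76-fold, averaging 42.9 ± 4.59 CPM in SF1 (SD, n = 3) and 75.2 ± 10.4 CPM in WT (n = 2), with a log2 fold change of -0.82 ± 0.13 SE and an edgeR adjusted p = 0.00404. Ddx58 was the member with the smallest p, and it passed under all 13 alternative settings, with fold changes of -0.95 to -0.66.

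The other sensors did not pass the test, and all had fold changes below 0 (range over the 5 sensors -0.82 to -0.25, median -0.43). Dhx58 (LGP2), which regulates RIG-I and MDA5 and had the highest level per exon length among the sensors, had 54.8, 36.8 and 49.4 CPM in SF1, against 61.9 and 51.8 CPM in WT. SF1 replicate 1 lay between the WT libraries (log2 fold change -0.28 ± 0.17 SE, adjusted p = 0.280). Ifih1 (MDA5, which senses long double-stranded RNA) had a log2 fold change of -0.25 and an adjusted p = 0.360. Eif2ak2 encodes PKR, the kinase that halts translation on double-stranded RNA. It had 47.2, 35.5 and 36.1 CPM in SF1 and 53.4 and 53.1 CPM in WT, without overlap (-0.43 ± 0.14 SE, adjusted p = 0.0668). It was past the threshold with DESeq2 (adjusted p = 0.0468), limma voom (0.0376), no filter (0.0096) and without SF1 replicate 1 (0.0151). Zbp1, a sensor of Z-form nucleic acid that can trigger cell death, varied 2.86-fold among SF1 libraries, more than the groups differed (-0.51 ± 0.38 SE, adjusted p = 0.402).

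The OAS genes encode enzymes that make oligoadenylates to activate RNase L, or related proteins. None of the 5 passed, and all had fold changes below 0 (median -0.46, -0.17 without WT replicate 1). Oas1a, the highest of them per exon length, had 27.2, 17.8 and 23.0 CPM in SF1, against 28.7 and 24.6 CPM in WT. The groups overlapped (log2 fold change -0.25 ± 0.18 SE, adjusted p = 0.394). Oas3 lay furthest from 0 in this role, with 16.4, 6.74 and 12.0 CPM in SF1 and 24.7 and 21.0 CPM in WT, all SF1 libraries below both WT libraries (-0.98 ± 0.29 SE, adjusted p = 0.0525). It was past the threshold with DESeq2 (adjusted p = 0.0151), with limma voom (0.0222), without a filter on low counts (7.05e-06) and without SF1 replicate 1 (0.0193). Oas2, Oasl1 and Oasl2, of which Oasl1 is known in mice as a brake on Irf7 translation, had fold changes of -0.54, -0.46 and -0.33.

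IFIT proteins bind viral RNA and block its translation. The 3 IFIT genes had fold changes of -1.07 (Ifit3), -0.78 (Ifit1) and -0.34 (Ifit2), none past the threshold, although each had an unadjusted p under 0.05. Ifit2, the highest per exon length, had 29.4, 24.7 and 25.6 CPM in SF1, against 37.9 and 28.8 CPM in WT. SF1 replicate 1 slightly exceeded WT replicate 2 (adjusted p = 0.153). Ifit1 had 12.7, 5.78 and 8.18 CPM in SF1 and 15.5 and 14.8 CPM in WT, and Ifit3 had 2.66, 0.876 and 2.02 CPM in SF1 and 4.03 and 3.64 CPM in WT. In both, no SF1 library reached a WT library, and SF1 replicate 2 was lowest. Ifit1 was past the threshold without SF1 replicate 1 (adjusted p = 0.0178), in limma voom (0.0381) and without a filter (0.00455), and Ifit3 without a filter (0.0344).

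Mx GTPases trap viral nucleocapsids. Mx1 had 7.98, 5.34 and 7.72 CPM in SF1, against 13.0 and 8.54 CPM in WT (-0.64 ± 0.26 SE, adjusted p = 0.126). Mx2, annotated by GENCODE as a polymorphic pseudogene, had a fold change of -0.24 (adjusted p = 0.616), and 0.19 without WT replicate 1. The p200 genes encode interferon-inducible DNA-binding and transcription-regulating proteins. Ifi203 had 173, 129 and 143 CPM in SF1, against 147 and 183 CPM in WT, with overlap (-0.15 ± 0.14 SE, adjusted p = 0.495). Ifi204 was the lowest member per exon length, at 1.17, 1.40 and 1.75 CPM in SF1, against 2.31 and 2.85 CPM in WT (-0.82 ± 0.36 SE, adjusted p = 0.162).

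**Figure D2:**
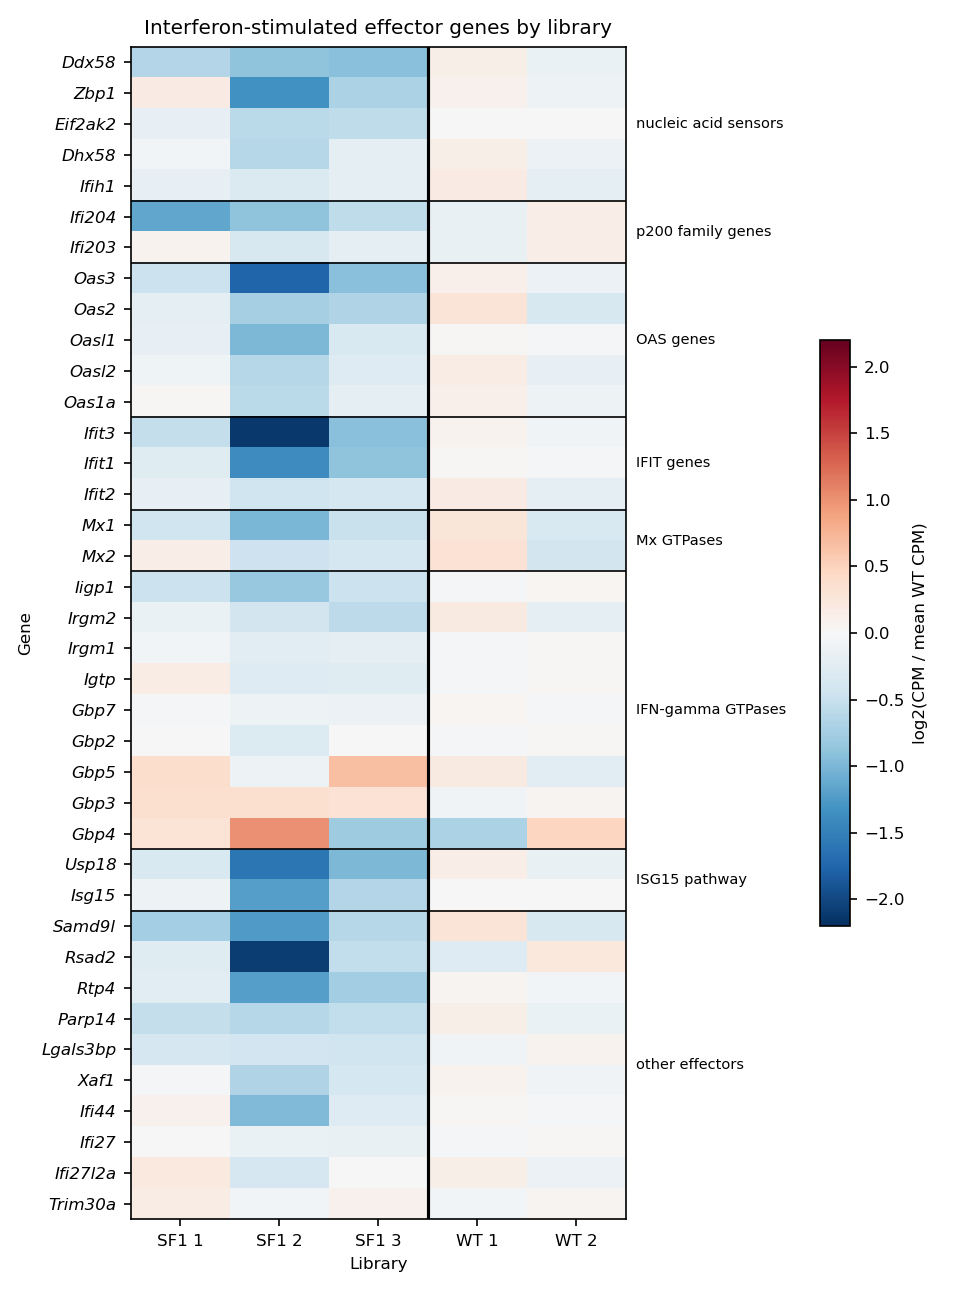
Level of each of the 38 members (rows, grouped by role) in each library (columns, SF1 left of WT), as log2 of CPM over the mean CPM of the WT libraries; blue is below and red above that mean. SF1 replicate 2 has the most blue column, and Gbp3 is red in all SF1 libraries.

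The guanylate-binding proteins (GBPs) and immunity-related GTPases (IRGs) attack membranes around intracellular pathogens and are induced above all by interferon-gamma. This role differed in its values from the sensors, OAS and IFIT genes: 6 of its 9 members had fold changes below 0, with a median of -0.09, against 5 of 5 sensors (median -0.43), 5 of 5 OAS genes (-0.46) and 3 of 3 IFIT genes (-0.78). The difference between roles was not tested. Its calls went both ways, with Iigp1 lower and Gbp3 higher.

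Gbp3 (GRCm38 chr3:142560026-142573209, plus strand) had 115.6, 114.7 and 112.1 CPM in SF1, against 85.9 and 94.4 CPM in WT. The SF1 libraries were within 1.03-fold of each other and above both WT libraries. It rose 1.27-fold, averaging 114 ± 1.82 CPM in SF1 (SD, n = 3) and 90.2 ± 5.99 CPM in WT (n = 2), with a log2 fold change of 0.34 ± 0.09 SE and an adjusted p = 0.0274. The direction was the same under all 13 alternatives, with fold changes of 0.27 to 0.40. Leaving out any SF1 library (adjusted p = 0.0556, 0.0744 and 0.0691 without replicates 1, 2 and 3) or WT replicate 1 (0.196) ended the call.

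Iigp1 encodes an effector IRG that disrupts the vacuole of intracellular parasites in mice. It had 24.04, 18.8 and 24.08 CPM in SF1, against 32.5 and 34.4 CPM in WT, with every SF1 library below both WT libraries. It fell 1.498-fold, averaging 22.3 ± 3.02 CPM in SF1 (SD, n = 3) and 33.4 ± 1.33 CPM in WT (n = 2), a log2 fold change of -0.58 ± 0.14 SE with an adjusted p = 0.0249. The call was lost without SF1 replicate 2 (adjusted p = 0.0675), SF1 replicate 3 (0.0528), WT replicate 1 (0.0932) or WT replicate 2 (0.0849). Each of those fits still gave a fold change below 0.

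The remaining 7 genes of the role did not pass. Igtp, a regulatory IRG and the highest of the role per exon length at 39.0 RPKM, had 92.4, 68.0 and 68.6 CPM in SF1, against 81.2 and 83.7 CPM in WT, the SF1 libraries lying on both sides of the WT libraries (-0.11 ± 0.14 SE, adjusted p = 0.629). The regulatory genes Irgm1 and Irgm2 had fold changes of -0.17 and -0.38. Gbp2, Gbp7 and Gbp5 had fold changes of -0.09, -0.09 and 0.32. Gbp4 had 57.1, 93.5 and 26.9 CPM in SF1, against 28.6 and 64.1 CPM in WT, so that libraries of the same group differed more than the groups (0.38 ± 0.46 SE, adjusted p = 0.618). Igtp shares 8.01% of its exon bases with Irgm2, and Gbp4 shares exon bases with Gbp8 and Gbp9, so reads of these genes may be split between them or not counted.

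ISG15 is a ubiquitin-like protein that is attached to other proteins, and USP18 removes it and also dampens the type I interferon receptor. Usp18 had 41.9, 17.6 and 26.5 CPM in SF1, against 58.2 and 47.1 CPM in WT. No SF1 library reached a WT library, and the SF1 libraries differed 2.38-fold among themselves (-0.89 ± 0.28 SE, adjusted p = 0.0612). It was past the threshold in limma voom (adjusted p = 0.0228), without a filter (3.7e-09), with GC and length trends removed (0.0489) and without SF1 replicate 1 (0.00787). Isg15 had 11.3, 5.25 and 7.81 CPM in SF1, against 12.2 and 12.3 CPM in WT, again without overlap (-0.60 ± 0.29 SE, adjusted p = 0.186; 0.0494 without SF1 replicate 1).

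Among the 10 other effectors 3 fell and 7 did not pass, so 30% fell, against 9.74% of all genes tested. Fold changes were below 0 in 9 of them (90%, against 47.9% of all genes tested), with a median of -0.38. Lgals3bp, a secreted glycoprotein that binds galectin-3, was the highest of all 38 members per exon length, at 74.8 RPKM over the 5 libraries (GRCm38 chr11:118392751-118402092, minus strand). It had 193, 186 and 185 CPM in SF1, against 236 and 264 CPM in WT, with little spread within and no overlap between the groups. It fell 1.33-fold, averaging 188 ± 4.46 CPM in SF1 (SD, n = 3) and 250 ± 19.5 CPM in WT (n = 2), a log2 fold change of -0.41 ± 0.08 SE with an adjusted p = 0.0106. Without WT replicate 2 the adjusted p was 0.0531.

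Parp14, a mono-ADP-ribosyltransferase, had 37.5, 34.8 and 36.9 CPM in SF1, against 58.9 and 48.7 CPM in WT. Its SF1 libraries were close together and below both WT libraries. It fell 1.48-fold, averaging 36.4 ± 1.46 CPM in SF1 (SD, n = 3) and 53.8 ± 7.16 CPM in WT (n = 2), a log2 fold change of -0.57 ± 0.12 SE with an adjusted p = 0.0131. The call was lost without SF1 replicate 2 (adjusted p = 0.0541) and without WT replicate 1 (0.124).

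Samd9l, a cytosolic antiviral protein that also restrains cell growth and is mutated in inherited marrow failure in humans, lies at GRCm38 chr6:3372257-3399572 on the minus strand. It had 22.0, 15.7 and 24.2 CPM in SF1, against 45.2 and 29.0 CPM in WT. WT replicate 2 lay nearer to the SF1 libraries than to WT replicate 1. It fell 1.82-fold, averaging 20.6 ± 4.42 CPM in SF1 (SD, n = 3) and 37.1 ± 11.5 CPM in WT (n = 2), a log2 fold change of -0.87 ± 0.22 SE with an adjusted p = 0.0295. The call was lost without SF1 replicate 1 (adjusted p = 0.0550), SF1 replicate 2 (0.0898) or WT replicate 1, where the fold change was -0.50 (0.275).

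The 7 effectors that did not pass included Rsad2, the member with the widest ratio between its highest and lowest SF1 library. Rsad2 (viperin, which makes a chain-terminating nucleotide) had 11.8, 3.33 and 9.74 CPM in SF1, against 11.7 and 16.7 CPM in WT, a 3.55-fold spread among SF1 libraries (-0.77 ± 0.42 SE, adjusted p = 0.241). Rtp4, a chaperone of membrane receptors, had 76.5, 38.4 and 52.8 CPM in SF1, against 93.0 and 86.1 CPM in WT, without overlap (-0.69 ± 0.23 SE, adjusted p = 0.0693), and shares 13.9% of its exon bases with a predicted gene. It was past the threshold without SF1 replicate 1 (adjusted p = 0.00801), in limma voom (0.0307), without a filter (1e-07) and with GC and length trends removed (0.0395). Xaf1, which promotes cell death, and Ifi44 had fold changes of -0.35 and -0.33. Ifi27, Ifi27l2a and Trim30a, 3 of the more abundant members at 72.1, 62.4 and 25.0 RPKM, had fold changes of -0.10, -0.04 and 0.07. Abundant members were thus among both the called ones and those nearest to 0.

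**Figure D3:**
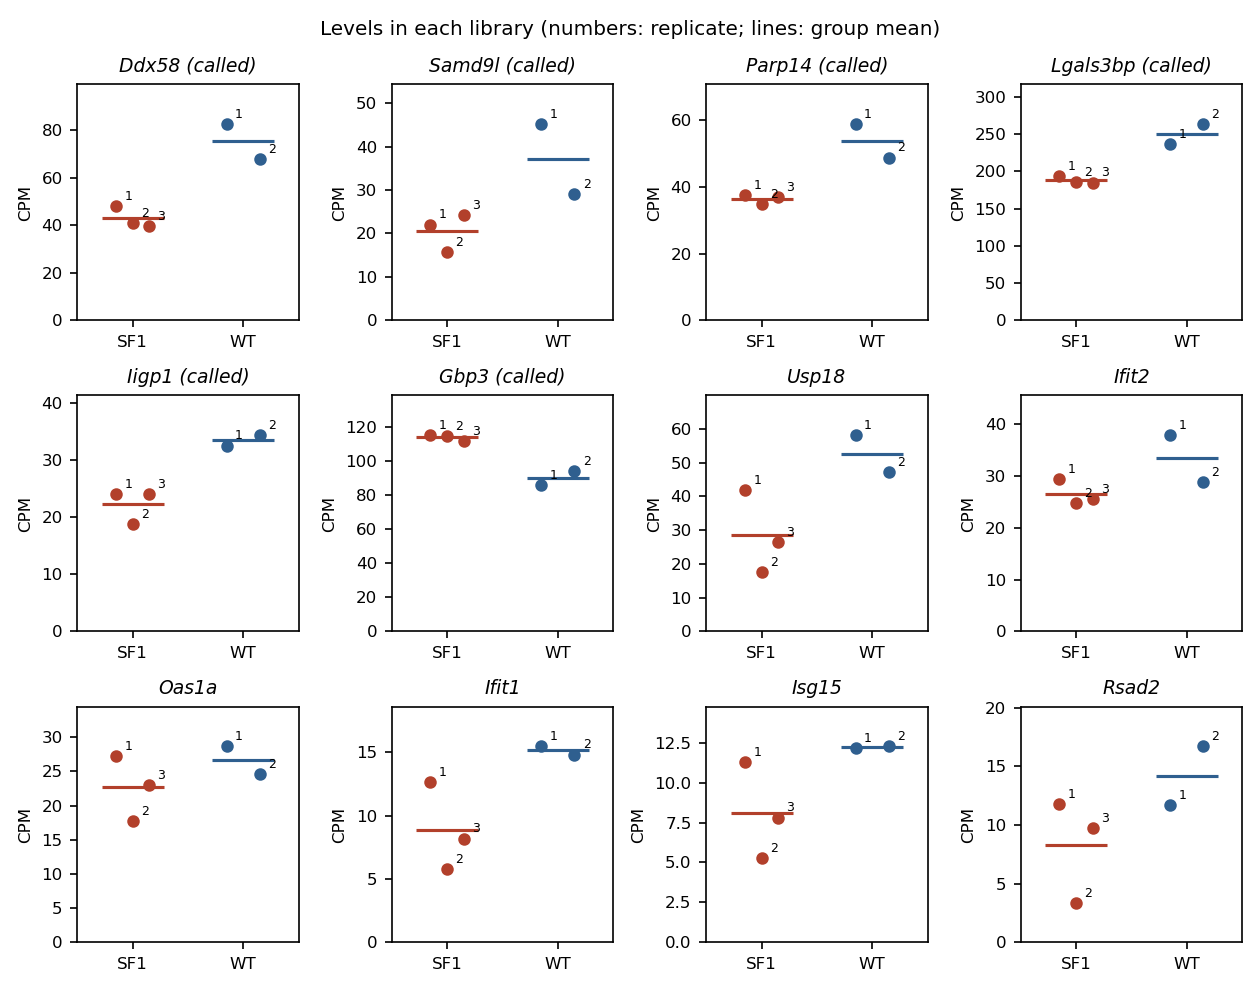
CPM of the 6 called members and of 6 members that did not pass the test, on separate vertical axes that start at 0; each point is a library with its replicate number, SF1 left of WT, and lines are group means. SF1 points are below both WT points for Ddx58, Samd9l, Parp14, Lgals3bp, Iigp1, Usp18, Ifit1 and Isg15, above both for Gbp3, and overlap WT for Ifit2, Oas1a and Rsad2.

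The SF1 libraries differed from each other in a common order. SF1 replicate 1 was the highest SF1 library in 33 of the 38 members, where it was highest in 34.1% of all genes tested, and SF1 replicate 2 was the lowest in 30 members, where it was lowest in 32.6% of all genes. The median over the members of log2(CPM + 0.1), relative to the WT mean, was -0.14, -0.63 and -0.41 in SF1 replicates 1, 2 and 3, against 0.06 and -0.06 in the WT libraries. Over all genes tested the same medians were within 0.0202 of 0 in every library. The median coefficient of variation over the SF1 libraries was 19.9% for the members, against 8.67% for genes tested with a mean of 5 to 200 CPM.

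The order held within most roles. The IFIT genes had medians of -0.26, -1.38 and -0.88 in SF1 replicates 1, 2 and 3, the ISG15 pathway -0.22, -1.39 and -0.82, the OAS genes -0.18, -0.72 and -0.33 and the sensors -0.17, -0.63 and -0.56. The interferon-gamma GTPases were nearest to the WT mean in each SF1 library, at 0.01, -0.24 and -0.22. Without SF1 replicate 1, 10 members fell, or 26.3%, where 8.9% of all genes tested in that fit fell. Without SF1 replicate 2, 2 members fell, Ddx58 and Lgals3bp, or 5.26%, where 5.48% of all genes fell. Without WT replicate 1 the same 2 members fell, where 3.49% of all genes fell. The median fold change of the members was -0.51 without SF1 replicate 1 and -0.23 without SF1 replicate 2. Without SF1 replicate 2 it was -0.21 for the sensors and -0.25 for the OAS genes, and without SF1 replicate 1 it was -0.14 for the interferon-gamma GTPases. Gbp3 had nearly the same level in each SF1 library.

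**Figure D4:**
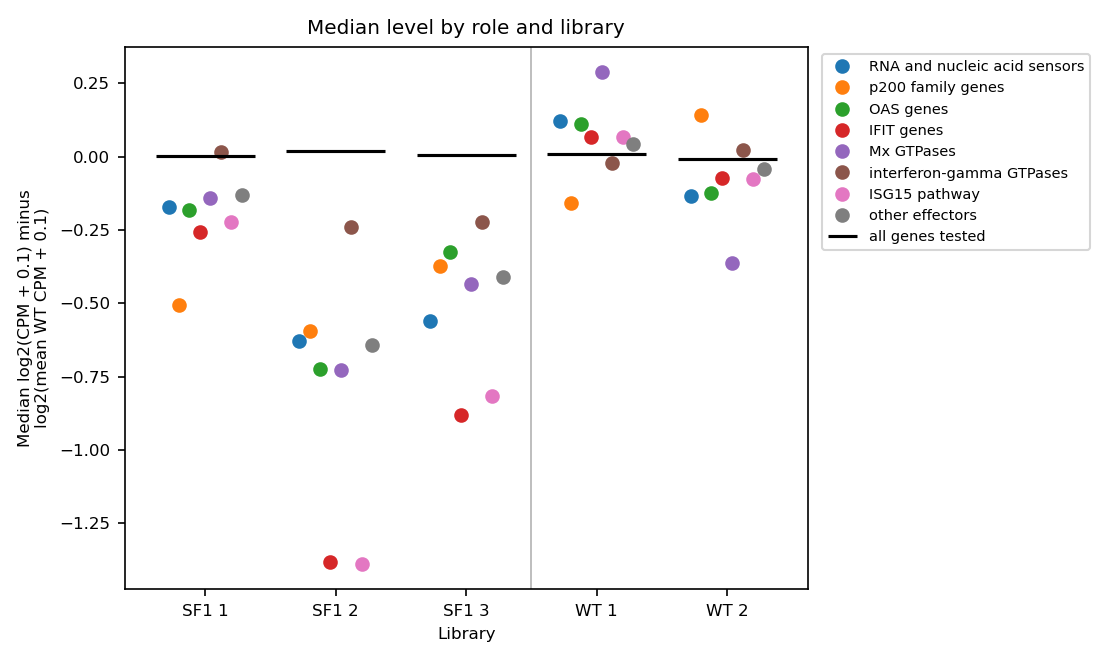
Median level of each role in each library, as log2(CPM + 0.1) minus log2 of the mean WT CPM + 0.1; coloured points are roles, black bars the median over all genes tested, and SF1 libraries stand left of WT libraries. The points of SF1 replicate 2 reach lowest, at -1.39 for the ISG15 pathway and -1.38 for the IFIT genes, while the black bars stay within 0.0202 of 0.

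Genes upstream of the members did not share a direction. Reads of the interferons themselves were almost absent: of 21 ligand genes 18 had no count in any library and none was tested, with summed counts of 1, 2 and 2 in SF1 and 2 and 0 in WT. Of 5 receptor genes tested 2 rose and 3 did not pass (40% called, against 16.5% of all genes tested). Ifnar2, the signalling chain of the type I receptor, had 292, 311 and 316 CPM in SF1, against 228 and 235 CPM in WT (0.40 ± 0.08 SE on the log2 scale, adjusted p = 0.00911). Il10rb, shared by the interferon-lambda and IL-10 receptors, had 148, 157 and 161 CPM in SF1, against 115 and 118 CPM in WT (0.42 ± 0.08 SE, adjusted p = 0.0102). The SF1 libraries lay above both WT libraries for each. Both calls were lost without WT replicate 1 (adjusted p = 0.0636 for Ifnar2 and 0.0711 for Il10rb).

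Of 17 signalling genes tested 1 rose, 2 fell and 14 did not pass. The share called, 17.6%, was near the 16.5% of all genes tested. Irf8, a factor of dendritic and monocytic cells, had 1039, 1117 and 1319 CPM in SF1, against 575 and 663 CPM in WT (0.90 ± 0.11 SE, adjusted p = 0.00140). Jak1, the kinase that all interferon receptors use, had 414, 387 and 390 CPM in SF1, against 542 and 491 CPM in WT (-0.38 ± 0.08 SE, adjusted p = 0.0123), and was not past the threshold without SF1 replicate 2 (0.0557) or WT replicate 1 (0.0958). Tyk2, its partner at the type I receptor, had 90.7, 86.3 and 80.1 CPM in SF1, against 115 and 100 CPM in WT. Its groups did not overlap (-0.33 ± 0.10 SE, adjusted p = 0.0496). The Tyk2 call was lost without each of SF1 replicates 1, 2 and 3 and WT replicate 1 (adjusted p = 0.0514, 0.113, 0.147 and 0.338) and after thinning to equal depth (0.0608), and with GC and length trends removed the fold change was -0.13 (0.375).

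Irf7, the factor that amplifies interferon production and is itself interferon-induced, had 56.8, 24.9 and 27.4 CPM in SF1, against 75.7 and 60.2 CPM in WT, without overlap, and did not pass the test (-0.92 ± 0.30 SE, adjusted p = 0.0691). The adjusted p of Irf7 was 0.00153 without SF1 replicate 1, 0.0202 in limma voom and 4.41e-11 without a filter.

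Of 15 tested genes that link sensors to interferon production 2 rose, 2 fell and 11 did not pass (26.7% called, against 16.5% of all genes tested). Adar, which edits double-stranded RNA and so hides it from MDA5, had 150, 128 and 121 CPM in SF1, against 218 and 175 CPM in WT (-0.57 ± 0.12 SE, adjusted p = 0.0145), and Traf3, an adaptor, had 22.0, 27.0 and 24.6 CPM in SF1, against 41.8 and 35.2 CPM in WT (-0.65 ± 0.14 SE, adjusted p = 0.0129). No SF1 library of either gene reached a WT library. Tmem173 (STING) had 461, 481 and 485 CPM in SF1, against 356 and 397 CPM in WT (0.34 ± 0.08 SE, adjusted p = 0.0206). Myd88, the Toll-like receptor adaptor, had 79.0, 77.3 and 81.3 CPM in SF1, against 64.9 and 61.4 CPM in WT (0.33 ± 0.09 SE, adjusted p = 0.0417). For both, every SF1 library was above both WT libraries. All 4 calls were lost without WT replicate 1 (adjusted p = 0.122, 0.122, 0.151 and 0.130), Adar and Tmem173 also without SF1 replicate 2 (0.0628 and 0.0726) or 3 (0.0566 and 0.0690), and Myd88 without any single library (0.0709 to 0.163), after thinning (0.0753), without a filter (0.0735) and with GC and length trends removed (0.0664).

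**Figure D5:**
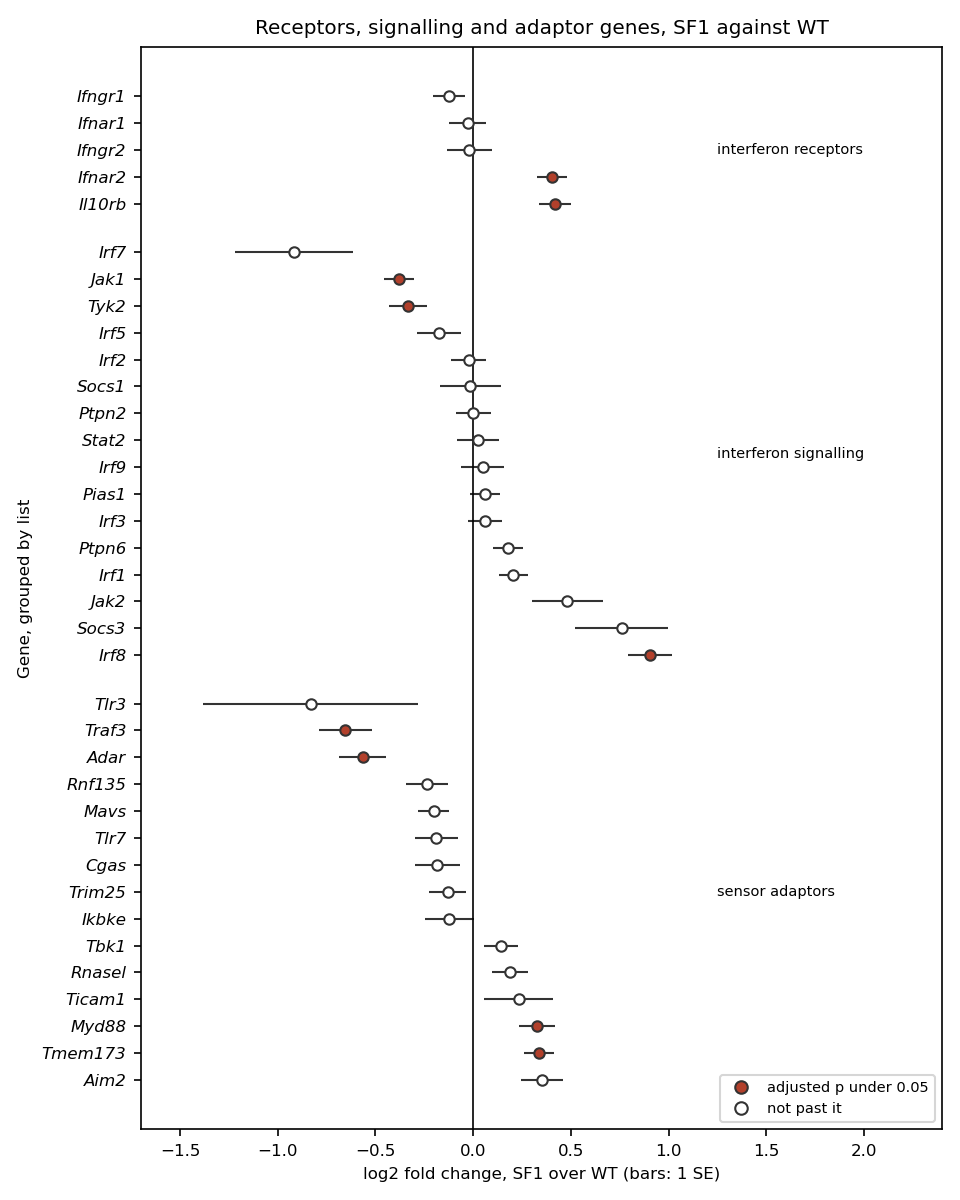
Log2 fold change of SF1 over WT for interferon receptor, signalling and sensor adaptor genes that were tested, 1 signalling gene left out, drawn as for the members; bars are 1 SE and filled points had an adjusted p under 0.05. Filled points lie on both sides of 0, with Irf8 at 0.90 and Traf3 at -0.65 the furthest.

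A list of other interferon-stimulated genes, 69 of which were tested, had 6 genes that rose, 10 that fell and 53 that did not pass, with a median log2 fold change of -0.12. The share that fell was 14.5% and the share that rose 8.7%, against 9.74% and 6.77% of all genes tested. Of these genes 60.9% had fold changes below 0, against 47.9% of all genes tested. Parp10, a mono-ADP-ribosyltransferase like Parp14, had 33.0, 25.1 and 31.7 CPM in SF1, against 76.5 and 70.9 CPM in WT (-1.30 ± 0.13 SE, adjusted p = 0.000648). Tap1, which carries peptides for MHC class I, had 370, 336 and 334 CPM in SF1, against 474 and 506 CPM in WT (-0.50 ± 0.08 SE, adjusted p = 0.00413). In the other direction, Ifitm1, a membrane protein that blocks viral entry, had 51.6, 62.1 and 84.1 CPM in SF1, against 14.8 and 17.99 CPM in WT (2.02 ± 0.21 SE, adjusted p = 0.000724). Samhd1, which depletes nucleotides, had 47.3, 53.8 and 55.1 CPM in SF1, against 33.2 and 31.8 CPM in WT (0.68 ± 0.12 SE, adjusted p = 0.00558). In all 4 the groups were well apart.

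Markers of other cell types moved with genotype in the same libraries. All 12 neutrophil markers rose, with summed levels of 1325 to 4506 CPM in SF1 libraries against 150 and 205 CPM in WT libraries. Of 11 plasmacytoid dendritic cell markers tested, a list that holds Irf7, Irf8 and the interferon-induced Bst2, 8 rose and none fell, with sums of 2212 to 2788 CPM in SF1 and 1324 and 1486 CPM in WT. Of 7 erythroid markers tested 5 fell, with sums of 5.43 to 9.19 CPM in SF1 and 50.2 and 74.5 CPM in WT, Hba-a2 being at 0 in all SF1 libraries.

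Among 11 monocyte and macrophage markers tested 4 rose and 5 fell, with sums of 189 to 274 CPM in SF1 and 88.3 and 133 CPM in WT, and the macrophage gene Cd5l was at 0 in all SF1 libraries. Of 8 plasma cell markers 3 rose and 5 did not pass, with sums of 788 to 1016 CPM in SF1 and 379 and 413 CPM in WT. Among those that did not pass, Mzb1 and Irf4 had log2 fold changes of -0.98 and -0.64, and Prdm1, Xbp1 and Sdc1 of 0.10, 0.28 and 0.23. The 3 that rose were antibody genes. Igha had 145 to 268 CPM in SF1 and 0.503 and 0.911 CPM in WT. Igkc had 136 to 185 CPM in SF1 and 0.604 and 0.342 CPM in WT, and Jchain 31.8 to 85.1 CPM in SF1 and 1.36 and 0.911 CPM in WT. Of 4 natural killer and T cell markers tested 1 rose, Klrd1 (22.4 to 32.4 CPM in SF1, 9.66 and 8.43 CPM in WT). Sums over that list were 189 to 209 CPM in SF1 and 176 and 183 CPM in WT. The other 6 markers had too few reads to be tested. Ncr1 and Cd3e had counts of 0 in SF1, and of 2 and 0 (Ncr1) and 1 and 1 (Cd3e) in WT. Trac had counts of 5, 7 and 6 in SF1 and 3 and 2 in WT, and Cd3d 2, 1 and 6 in SF1 and 2 and 0 in WT. Cd3g had counts of 0, 1 and 0 and Eomes of 0, 0 and 3 in SF1, both with 0 in WT. Among SF1 libraries, sums of neutrophil, plasmacytoid dendritic cell, and monocyte and macrophage markers were lowest in replicate 1 and highest in replicate 3. Sums of plasma cell, erythroid, and natural killer and T cell markers were lowest in SF1 replicate 2. Most members were highest in SF1 replicate 1 and lowest in SF1 replicate 2. The part of these other cell types in the levels of the members was not tested.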

How the data were processed

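The authors deposited raw read counts per gene for 5 CLP libraries (3 SF1, 2 WT), with no normalization. HISAT2 2.2.1, featureCounts 2.0.1 and the GRCm38 build are named in the submitters' processing notes; the sources used here do not give the annotation release, the strand setting or the treatment of multi-mapped reads. Per the labels' protocols, SMART-Seq cDNA went into Nextera XT libraries, which carry no molecular identifiers and do not mark strand, so PCR copies count as reads. Reads on exon bases shared by genes (12 members) or on near-identical copies may be split between genes or not counted. GENCODE M21 matched 55227 of 55487 identifiers and gave symbols, coordinates and exon lengths.

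Counts of all genes were fitted with edgeR 4.0.16 in R 4.3.3 (TMM scaling, filterByExpr with minimum count 10, quasi-likelihood F test, no covariate, Benjamini-Hochberg adjustment over the 14423 genes tested). CPM are TMM-scaled, RPKM are CPM per kilobase of exon, and the SE was derived from the F statistic. Values per library are given for every called member, the highest member of each role per exon length, and the called or smallest-p genes of each pathway list; other members with such values were chosen after they were seen. The members and lists were chosen with earlier results of these data known. Chi-square per degree of freedom within groups was 6.38 to 8.81, so no library was a repeat. The fit was tested on simulated data. 1 signalling gene is counted but not reported here. Alternatives were DESeq2 1.42.0 and its size factors, limma 3.58.1 voom with sample weights, other filters (none, or a mean of 5 CPM), thinning to the smallest total, each library left out, the replicate number as a block, and GC and length offsets.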

Additional observations from a re-analysis of the deposited data

How the results depend on the processing

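The members kept their lean in each alternative run. In these, 33 or 34 of 38 had fold changes below 0 (32 of 36 under the stricter filter). Medians ran from -0.23 (without SF1 replicate 2) to -0.51 (without SF1 replicate 1). The runs reuse the same 5 libraries, and most members shared an order over the SF1 libraries, so neither members nor runs are independent observations. The count of members that fell was 5, and it was 10 with limma voom, when 28.9% of members and 18% of all genes were called. Without a filter on low counts 15 members fell and 2 rose, 44.7% of members against 12.3% of all genes, and 22 pathway list genes fell, against 14. Fold changes hardly moved: Usp18 had -0.89 with the filter and -0.91 without it, and Gbp4 had 0.38 and 0.37. Their unadjusted edgeR p went from 0.0113 to 7.71e-11 and from 0.429 to 0.00474. In Gbp4, libraries of the same group differed more than the groups. P-values without a filter, here and above, thus follow the spread of a gene between libraries less, and passing there is weak evidence. The cause was not tested. Leaving out single libraries gave 2 to 10 members lower and 0 to 1 higher, 522 to 1265 of all genes lower and 464 to 905 higher, and 3 to 16 pathway list genes lower and 4 to 11 higher. Fits that leave 1 WT library assume that it varies like the SF1 libraries.

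Signs turned in 8 fits of 6 genes that did not pass in them. Over the fits that left out 1 library, Ifi203 ran from -0.30 to 0.01 (0.00539 without WT replicate 2), Mx2 from -0.53 to 0.19 (0.1869 without WT replicate 1) and Gbp2 from -0.14 to 0.01 (0.00753 without SF1 replicate 2). Gbp4 ran from -0.12 (without SF1 replicate 2; -0.11 without WT replicate 1) to 1.04, Ifi27l2a from -0.17 to 0.11 (without SF1 replicate 2; 0.10 without WT replicate 1) and Gbp8 from -0.18 (without WT replicate 1) to 1.18. Among the members, those not called passed in 29 alternative fits, and the 6 called ones missed the threshold in 15. Same-numbered SF1 and WT libraries had deviations from their group means with r = 0.0356 and 0.0646. With 2 WT libraries both values rest on the same WT difference, so they cannot show whether the replicate numbers pair the libraries. The labels do not say. Replicate 3 has no WT library, so with the replicate number as a block SF1 replicate 3 does not inform the fold change. Gbp3 and Gbp4 had 0.36 and 0.77 with the block, against 0.35 and 0.73 without SF1 replicate 3. With the replicate block 574 of all genes rose and 945 fell. Of the members 7 fell (18.4%, against 6.55% of all genes), Oas3 and Usp18 among them. Gbp4 in place of Gbp3 rose (edgeR adjusted p = 0.0148 and 0.0763). The block adds terms to a fit of only 5 libraries, which leaves little to measure the spread between libraries, so passing there is weak evidence. The block ended the calls of Tyk2 (0.152), Myd88 (0.142) and Il7r (0.0700), while Irf7 (0.0337), Gbp8 (0.0435) and Gbp11 (0.00399) passed. The motif shortened by its last base stood in 20 of 25 promoters. With 2 WT libraries and 1 count worth up to 0.114 CPM, members near the lowest level, such as Ifi204 and Ifit3, have wide errors.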

Other observations

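Of 7 tested p200 genes in the list of other interferon-stimulated genes, 3 fell in SF1 CLPs, where 9.74% of all genes tested fell. The other 4 did not pass, with fold changes of -1.24 to 0.02. Aim2, a DNA sensor of the same family, had a fold change of 0.35 (edgeR adjusted p = 0.0557). Ifi206 had 33.3, 16.6 and 15.9 CPM in SF1, against 62.2 and 54.0 CPM in WT (log2 fold change -1.42 ± 0.27 SE, edgeR adjusted p = 0.00922). Ifi213 had 6.59, 2.19 and 3.77 CPM in SF1, against 11.3 and 11.2 CPM in WT (-1.44 ± 0.36 SE, adjusted p = 0.0288), and Ifi214 had 2.87, 1.31 and 1.38 CPM in SF1, against 5.74 and 6.38 CPM in WT (-1.72 ± 0.36 SE, adjusted p = 0.0141). These genes lie in a cluster of close copies, so their separate values are uncertain, and their values were known when they were chosen. The call of Ifi206 was lost without WT replicate 1 (adjusted p = 0.0548). That of Ifi214 was lost without SF1 replicate 2 (0.0573) or WT replicate 1 (0.0707), and that of Ifi213 in each fit that left out a library other than SF1 replicate 1 (0.0626 to 0.126). In each, SF1 replicate 1 was the highest SF1 library, as in most members.

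Outside the members, 5 GBP genes of chromosome 5 were tested, and their unadjusted p in edgeR was 0.154 to 0.729. Without a filter on low counts Gbp8 (adjusted p = 0.0213) and Gbp11 (9.68e-05) were past the threshold. Most of them, like Gbp4, differed between libraries of the same group. Gbp8 had 92.3, 119 and 43.0 CPM in SF1, against 37.2 and 96.0 CPM in WT (edgeR adjusted p = 0.602), and Gbp11 had 11.5, 26.4 and 2.39 CPM in SF1, against 4.23 and 8.31 CPM in WT (adjusted p = 0.322). As for Gbp4 on the same chromosome, SF1 replicate 2 was the highest and SF1 replicate 3 the lowest SF1 library, and WT replicate 2 was above WT replicate 1. Gbp9 (35.3, 43.0 and 31.6 CPM in SF1, 29.0 and 40.4 CPM in WT) and Gbp6 (18.8, 21.8 and 9.01 CPM in SF1, 14.8 and 21.5 CPM in WT) had the same order, and Gbp10 (2.23, 1.58 and 1.011 CPM in SF1, 0.604 and 1.59 CPM in WT) did not. This order is not that of the other members, most of which were lowest in SF1 replicate 2. Gbp3, on chromosome 3, was within 1.03-fold over the SF1 libraries. These genes are close copies, so their separate values are uncertain.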
